A study of Mus musculus with 12 samples.

Results

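Cholesterol synthesis and lipoprotein uptake were followed through 32 genes, taken by symbol from the 43279 genes in the table of normalised read counts of sorted mouse haematopoietic stem cells. They comprised 19 enzymes that build farnesyl and geranylgeranyl pyrophosphate and cholesterol, 5 sterol sensors and transcription factors, 2 lipoprotein receptors, 4 genes of intracellular sterol transport and storage, and 2 efflux pumps. All 32 passed the filter of at least 10 normalised counts in at least 5 libraries, as did 13358 genes in all. The study asked how loss of oncostatin M receptor (OSMR) signalling in the bone marrow niche changes stem cells. The libraries came from adult, untreated Osmr-/- mice (label numbers 1, 2, 3, 5 and 6, n = 5) and from adult, untreated wild-type C57BL/6 mice (WT, label numbers 1 to 6, n = 6), and the Osmr-/- sample labelled 4 was not analysed here. From each mouse, 1000 living cells of femur, tibia and ilium marrow, enriched for KIT and sorted as positive for KIT and SCA-1 and negative for FLT3, CD48 and lineage markers, gave 1 library of amplified polyadenylated RNA. The labels do not say whether the mice were littermates, nor describe the Osmr allele. The sorted cells carried it like the niche, so effects in the niche and in the cells themselves cannot be told apart in this design.

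Animal cells make cholesterol from acetyl-CoA through mevalonate, isoprenoid pyrophosphates, squalene and lanosterol, and they take it up as lipoprotein through receptors that deliver it to the lysosome. When sterol in the endoplasmic reticulum is low, SCAP escorts the precursors of the SREBP transcription factors to the Golgi, where proteases release them to switch on the synthesis and uptake genes, and INSIG proteins hold the complex back when sterol is plentiful. In blood-forming stem and progenitor cells, the efflux pumps ABCA1 and ABCG1 are known to restrain expansion by keeping membrane cholesterol low.

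The 11 libraries held 9500968 to 11193108 reads assigned to genes in Osmr-/- mice and 9886151 to 22144976 in WT mice. Osmr itself was near the detection limit in these cells, with 4 reads over all Osmr-/- libraries and 13 over all WT libraries, a log2 difference of -0.13 (two-sided exact permutation test, p = 0.848), so its level does not check the labels. Along the first principal component of all genes (21.2% of the variance), every Osmr-/- library (-101 to -19.0) lay below every WT library (-13.5 to 138). Along the second (16.5% of the variance), the libraries separated by label number, 1 to 3 against 4 to 6. The labels give no batch, so this grouping was read from the data, and values within each number set (3 Osmr-/- and 3 WT libraries numbered 1 to 3, 2 Osmr-/- and 3 WT libraries numbered 4 to 6) are given beside the pooled ones. The summed normalised count of 12 stem cell marker genes was 29978 to 40823 in Osmr-/- libraries and 26350 to 37233 in WT libraries, and none of these genes was at 3 reads or fewer over all libraries. Across the 13358 genes, limma called 3 at an adjusted p below 0.05 (0.0225%) and 2401 at an unadjusted p below 0.05 (18%).

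The promoters are shown for Vldlr and Npc2, whose levels separated the genotypes completely, and for Hmgcs1 and Srebf2, whose promoters held the letters of a sterol regulatory element, the sequence that SREBPs bind. Each is the 250 bases before a RefSeq transcription start (build GRCm38.p6), read 5′ to 3′ on the gene's strand. Capitals mark TCACCCCA (the core of a sterol regulatory element), CCAAT (the box bound by NF-Y) and GGGCGG (the box bound by SP1), on either strand. The regions are chr19:27216234-27216483 on the plus strand for Vldlr, chr12:84773113-84773362 on the minus strand for Npc2, chr13:119690101-119690350 on the plus strand for Hmgcs1 and chr15:82147019-82147268 on the plus strand for Srebf2.
Vldlr: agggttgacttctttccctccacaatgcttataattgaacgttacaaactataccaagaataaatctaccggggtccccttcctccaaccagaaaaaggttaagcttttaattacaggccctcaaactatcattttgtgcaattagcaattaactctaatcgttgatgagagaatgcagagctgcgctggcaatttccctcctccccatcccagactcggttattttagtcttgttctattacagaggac
Npc2: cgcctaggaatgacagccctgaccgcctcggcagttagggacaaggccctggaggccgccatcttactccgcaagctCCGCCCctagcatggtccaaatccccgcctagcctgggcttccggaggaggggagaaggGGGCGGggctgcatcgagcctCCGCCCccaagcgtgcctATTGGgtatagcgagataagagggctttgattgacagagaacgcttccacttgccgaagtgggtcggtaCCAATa
Hmgcs1: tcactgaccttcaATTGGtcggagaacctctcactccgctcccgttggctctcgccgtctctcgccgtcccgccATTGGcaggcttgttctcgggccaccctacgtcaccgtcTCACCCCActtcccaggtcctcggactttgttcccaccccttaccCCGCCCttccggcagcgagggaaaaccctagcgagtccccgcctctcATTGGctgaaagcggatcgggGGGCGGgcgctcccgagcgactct
Srebf2: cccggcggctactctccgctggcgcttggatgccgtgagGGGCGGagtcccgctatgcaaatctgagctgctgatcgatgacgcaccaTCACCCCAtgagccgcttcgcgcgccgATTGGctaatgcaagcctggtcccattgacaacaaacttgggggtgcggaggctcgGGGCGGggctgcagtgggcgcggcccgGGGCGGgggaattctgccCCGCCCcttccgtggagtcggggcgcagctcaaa

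RefSeq promoters matched 26 of the 32 genes, all but Fdps, Fdft1, Sqle, Npc1, Stard4 and Abcg1. A gene was counted when any of its starts held the letters on either strand. TCACCCCA stood in 2 of the 26 (7.69%), Hmgcs1 and Srebf2, against 1.54% of all 27025 genes with a promoter. CCAAT and GGGCGG each stood in 22 of the 26 (84.6%), against 37.5% and 35.4% of all genes, and the E-box CACGTG, which SREBPs can also bind, in 6 of the 26 (23.1%), against 6.86%. The outer Vldlr start printed here held none of the marked letters, while its inner start held 1 CCAAT and 1 GGGCGG. These counts describe letters in a short window and say nothing of binding. The 27025 genes include genes outside those tested for genotype, and the shares among the tested genes alone are not given here.

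Expressed per kilobase of exon, so that genes can be compared, the levels spanned a wide range. In WT cells the highest mean level was that of Pmvk at 387 normalised counts per kb, followed by Ebp at 356, Npc2 at 331, Msmo1 at 284 and Fdps at 260. The lowest in WT cells were Tm7sf2 at 9.33 normalised counts per kb, then Lss, then Hsd17b7 at 12.2. Of the 31 pairs of neighbours in this order, 30 lay closer together than the larger of their standard deviations, the exception being Stard4 (206) above Ggps1 (140). In Osmr-/- cells Ebp stood highest at 272 ± 48.3 normalised counts per kb (SD, n = 5), Stard4 followed at 204 ± 35.8, and Pmvk stood at 160 ± 153. The coefficient of variation between mice had a median over the 32 genes of 38.5% in Osmr-/- cells (15.0% to 128%) and 35.6% in WT cells (14.0% to 78.7%), which is large against most of the genotype differences below.

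Genotype was the comparison the study was built on. By limma, 0 of the 32 genes passed an adjusted p of 0.05, and 5 (15.6%) had an unadjusted p below 0.05, a share close to the 18% of all genes. Vldlr was the 1 higher gene among those 5, where 7.5% of all genes were higher at that p, and Npc2, Fdps, Pmvk and Fdft1 were the 4 lower ones, where 10.5% of all genes were. In all, 25 of the 32 (78.1%) had a lower mean log2 level in Osmr-/- than in WT cells, against 53.2% of all genes tested, and the median log2 difference was -0.27, against -0.05 over all genes. Leaving out each library in turn moved this median between -0.40, without Osmr-/- library 6, and -0.16, without Osmr-/- library 3. In the authors' deposited table, 3 of the 32 genes (9.38%) were called at an adjusted p below 0.05, namely Vldlr, Npc2 and Fdps, against 4.46% of all genes there. The same 3 were called by DESeq2 on the recovered reads (3.39% of all genes) and by limma with the number set as a covariate (2.52% of all genes), and 0 of the 32 by edgeR (0.015% of all genes). Without WT library 6, limma called 122 genes, with Vldlr and Fdps among them.

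**Figure D1:**
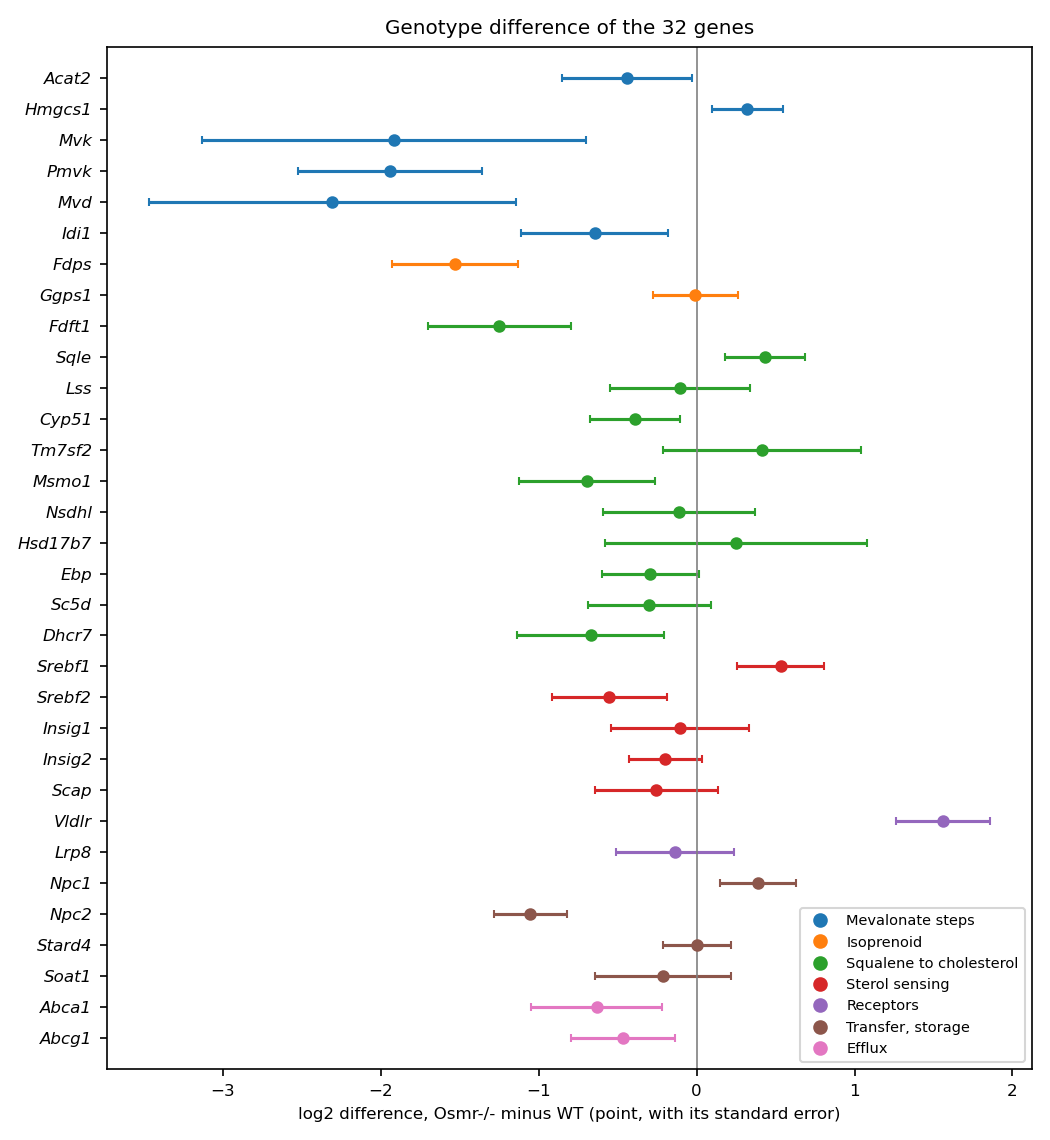
Log2 difference (Osmr-/- minus WT, horizontal axis) of each of the 32 genes (rows, in pathway order), as a point with its standard error, coloured by role. Vldlr stands furthest to the right at 1.56, and 25 of the 32 points lie below 0.

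The 6 mevalonate pathway genes had a median log2 difference of -1.28, with 5 of 6 below 0. With DESeq2 on the recovered reads the median was -0.52, and among libraries 4 to 6 it was 0.20 with 4 of 6 above 0. Pmvk, phosphomevalonate kinase, had 210, 377, 34.8, 675 and 74.2 normalised counts in Osmr-/- libraries 1, 2, 3, 5 and 6, against 816, 743, 496, 683, 602 and 634 in WT libraries 1 to 6. All Osmr-/- libraries but library 5 lay below every WT library, and the Osmr-/- values spread far more widely. Its means were 274 ± 261 in Osmr-/- cells (SD, n = 5) and 662 ± 112 in WT cells (SD, n = 6), a log2 difference of -1.94 ± 0.58 (SE; limma, adjusted p = 0.133). The log2 difference was -1.29 with edgeR on the recovered reads and -0.94 in the authors' deposited table.

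Mvk (mevalonate kinase) and Mvd (mevalonate diphosphate decarboxylase) were among the lowest genes of the pathway. Mvk had 0, 92.2, 0, 85.4 and 20.5 normalised counts in Osmr-/- libraries 1, 2, 3, 5 and 6, against 9.31 to 78.2 in WT libraries (median 44.9). Mvd had 48.7, 40.2, 0, 4.12 and 0 in the same Osmr-/- libraries, against 8.06 to 97.9 in WT libraries (median 41.0). Each gene was at 0 in 2 Osmr-/- libraries and in no WT library, and each had Osmr-/- libraries inside the WT range. Their log2 differences of -1.92 (Mvk; limma, adjusted p = 0.423) and -2.31 (Mvd; limma, adjusted p = 0.311) rest on the added count of 1, and with an added count of 10 they were -0.77 and -1.05. The counts themselves gave smaller differences, of -0.32 (Mvk) and -1.23 (Mvd) with edgeR, and -0.31 and -1.20 with DESeq2. The authors' deposited table held -0.14 and -0.49, smaller again than DESeq2 gave on the recovered reads, and those values may have been shrunken.

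Hmgcs1, which makes HMG-CoA, was the only gene of the 6 with a higher mean in Osmr-/- cells. It had 482 to 725 normalised counts in Osmr-/- libraries (median 580) and 355 to 618 in WT libraries (median 463), a log2 difference of 0.32 ± 0.23 (SE; limma, adjusted p = 0.473). Acat2, the cytosolic thiolase that condenses acetyl-CoA, differed by a log2 value of -0.44 (limma, adjusted p = 0.602), and Idi1, the isomerase of isopentenyl pyrophosphate, by -0.65 (limma, adjusted p = 0.485). Both had overlapping groups.

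Fdps (chr3:89093588-89101959, minus strand, GRCm38), which makes farnesyl pyrophosphate for sterols and for protein prenylation, was the enzyme with the smallest unadjusted p. It had 370, 896, 224, 321 and 210 normalised counts in Osmr-/- libraries 1, 2, 3, 5 and 6, against 1770, 1544, 983, 844, 950 and 477 in WT libraries 1 to 6. The groups overlapped through Osmr-/- library 2 and WT library 6, and every other Osmr-/- library lay below every WT library. The means were 404 ± 283 in Osmr-/- cells (SD, n = 5) and 1095 ± 477 in WT cells (SD, n = 6), a 2.89-fold lower geometric level in Osmr-/- cells (log2 difference -1.53 ± 0.40, SE; limma, adjusted p = 0.104). Fdps passed with the number set as a covariate (limma, adjusted p = 0.0380), and it fell in the authors' deposited table (log2 fold change -1.19, adjusted p = 0.0298). It did not pass with edgeR (adjusted p = 0.132). When each library was left out in turn, its limma adjusted p ran from 0.0468, without WT library 6, to 0.227. Its exons share 1124 bp with the gene model Gm43738 on the same strand, so reads there are uncertain. Ggps1, which makes the longer geranylgeranyl pyrophosphate, had means of 672 ± 243 in Osmr-/- cells and 659 ± 168 in WT cells (SD, n = 5 and n = 6) and a log2 difference of -0.01 (limma, adjusted p = 0.988).

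**Figure D2:**
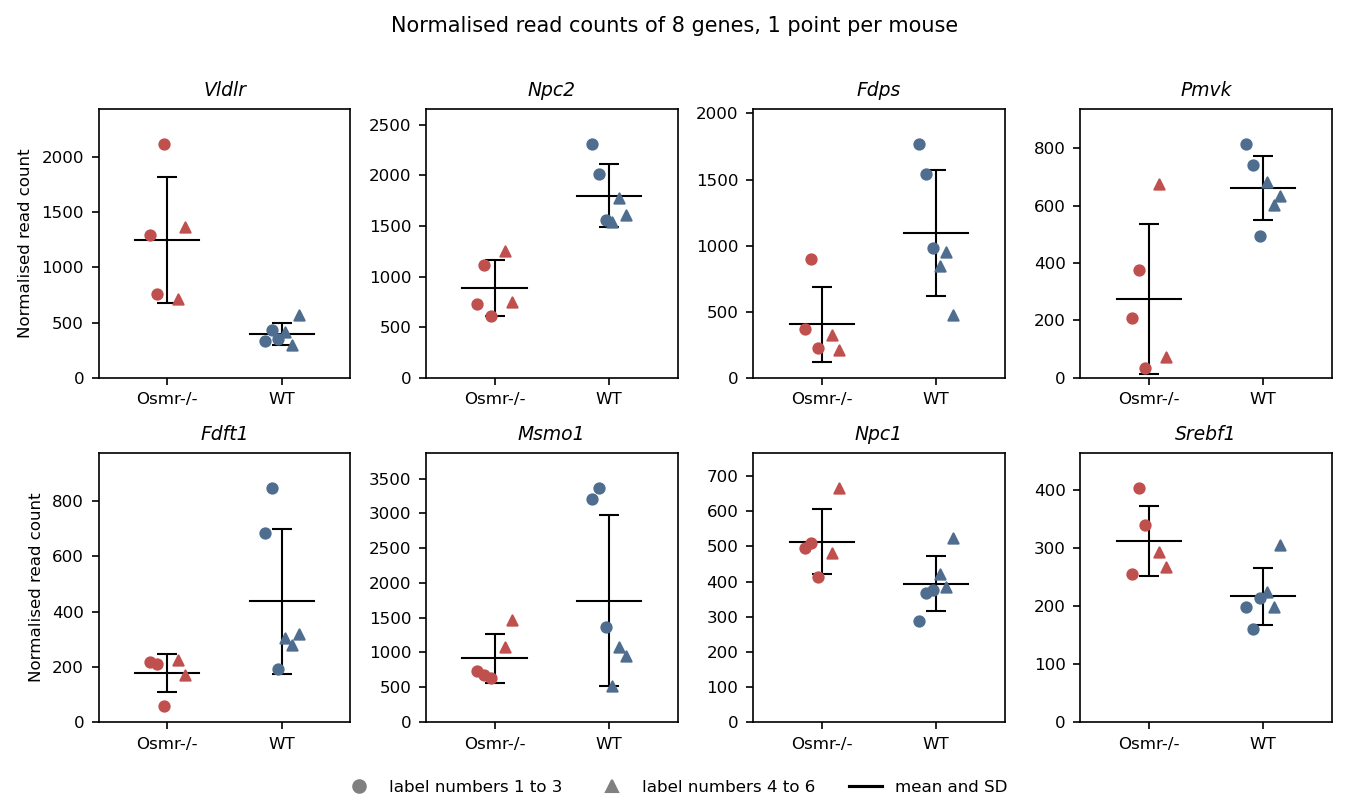
Normalised read counts (vertical axes, each from 0) of 8 genes in Osmr-/- and WT cells, with 1 point per mouse, circles for label numbers 1 to 3 and triangles for 4 to 6, and the mean with its SD. All Osmr-/- points of Vldlr lie above the WT points (711 to 2115, against 297 to 572), and all those of Npc2 lie below (606 to 1248, against 1534 to 2309).

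The 11 genes from squalene to cholesterol had a median log2 difference of -0.29, with 8 below 0, and medians of -0.62 among libraries 1 to 3 and 0.45 among libraries 4 to 6. Fdft1, squalene synthase, which commits farnesyl pyrophosphate to sterols, had 217, 209, 58.0, 224 and 171 normalised counts in Osmr-/- libraries 1, 2, 3, 5 and 6, against 684, 848, 192, 303, 278 and 318 in WT libraries 1 to 6. Only WT library 3 lay inside the Osmr-/- range. The log2 difference was -1.25 ± 0.45 (SE; limma, adjusted p = 0.181). Fdft1 shares 774 bp of exon with Ctsb on the opposite strand, which itself had 831 normalised counts in Osmr-/- cells and 1434 in WT cells. No source says whether counting used strand, so reads of the genes cannot be told apart there.

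Sqle, squalene epoxidase, a step known to limit the pathway, went the other way in mean. It had 383 to 832 normalised counts in Osmr-/- libraries (median 575), against 301 to 500 in WT libraries (median 457), a log2 difference of 0.43 ± 0.25 (SE; limma, adjusted p = 0.387). Among the enzymes that turn lanosterol into cholesterol, Msmo1, a methylsterol oxidase, had 739, 679, 630, 1071 and 1461 normalised counts in Osmr-/- libraries 1, 2, 3, 5 and 6, against 3210, 3365, 1362, 518, 1076 and 941 in WT libraries 1 to 6. In this gene WT libraries 1 and 2 stood above the rest, and WT library 3 lay below Osmr-/- library 6. The log2 difference was -0.69 (limma, adjusted p = 0.416). The remaining enzymes had overlapping groups. Lss, which closes squalene epoxide to lanosterol, differed by -0.10, the demethylase Cyp51 by -0.39, the sterol dehydrogenase Nsdhl by -0.11, the isomerase Ebp by -0.29, the desaturase Sc5d by -0.30 and the terminal reductase Dhcr7 by -0.67 on the log2 scale, while the sterol reductase Tm7sf2 differed by 0.41 and the ketosteroid reductase Hsd17b7 by 0.25, both on fewer than 600 reads over either genotype.

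The sterol sensors and transcription factors showed no call. Srebf1, which encodes SREBP1, had 255, 403, 339, 293 and 267 normalised counts in Osmr-/- libraries 1, 2, 3, 5 and 6, against 198, 160, 214, 224, 199 and 305 in WT libraries 1 to 6. Only WT library 6 lay inside the Osmr-/- range, and the log2 difference was 0.53 ± 0.28 (SE; limma, adjusted p = 0.333). Srebf2, which encodes SREBP2, the main activator of the synthesis genes, had 317, 240, 416, 838 and 903 normalised counts in Osmr-/- libraries 1, 2, 3, 5 and 6, against 511, 562, 484, 997, 847 and 975 in WT libraries 1 to 6. Its libraries divided first by number set: in both genotypes every library numbered 4 to 6 was above every library numbered 1 to 3. Its pooled log2 difference was -0.55 (limma, adjusted p = 0.442), with -0.71 among libraries 1 to 3 and -0.11 among libraries 4 to 6. Insig1, Insig2 and Scap differed by -0.10, -0.20 and -0.25 on the log2 scale, each with overlapping groups and an adjusted p of 0.687 or more (limma).

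Vldlr (chr19:27216484-27254231, plus strand, GRCm38, GENCODE M21), a receptor for triglyceride-rich lipoproteins and for reelin, had the smallest p of the 32 genes. It had 1291, 756, 2115, 711 and 1361 normalised counts in Osmr-/- libraries 1, 2, 3, 5 and 6, against 332, 435, 347, 411, 297 and 572 in WT libraries 1 to 6. The lowest Osmr-/- library lay above the highest WT library, as it did in 1.09% of all genes tested. The means were 1247 ± 569 in Osmr-/- cells (SD, n = 5) and 399 ± 99.1 in WT cells (SD, n = 6), a 2.95-fold higher geometric level in Osmr-/- cells (log2 difference 1.56 ± 0.30, SE). By limma its adjusted p was 0.0640, just outside the threshold, with edgeR 0.0633, with the number set as a covariate (limma) 0.0329 and with DESeq2 2.06e-04. Vldlr rose in the authors' deposited table by a log2 fold change of 1.48 (adjusted p = 1.23e-04). The log2 difference was 1.79 among libraries 1 to 3 and 1.26 among libraries 4 to 6, and it ran from 1.34 to 1.73 when each library was left out in turn, with limma adjusted p from 0.0377, without WT library 6, to 0.166. Lrp8, its nearest relative among the genes studied here and another reelin receptor, had 91.5 to 266 normalised counts in Osmr-/- libraries and 131 to 314 in WT libraries, with a log2 difference of -0.13 ± 0.37 (SE; limma, adjusted p = 0.887). Per kb of exon, Vldlr stood at 124 ± 56.6 normalised counts in Osmr-/- cells and 39.6 ± 9.84 in WT cells (SD, n = 5 and n = 6), and Lrp8 at 18.7 ± 6.39 and 20.5 ± 7.48 in the same order of genotypes.

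Cholesterol from incoming lipoprotein leaves the lysosome through NPC2, a soluble carrier, which hands it to NPC1 in the membrane. Npc2 (chr12:84754562-84773152, minus strand) had 731, 1113, 606, 1248 and 749 normalised counts in Osmr-/- libraries 1, 2, 3, 5 and 6, against 2309, 2016, 1561, 1534, 1775 and 1603 in WT libraries 1 to 6. The highest Osmr-/- library lay below the lowest WT library, as in 1.42% of all genes tested. The means were 889 ± 275 in Osmr-/- cells (SD, n = 5) and 1800 ± 308 in WT cells (SD, n = 6), a 2.08-fold lower geometric level in Osmr-/- cells (log2 difference -1.05 ± 0.23, SE; limma, adjusted p = 0.0717). Npc2 passed with the number set as a covariate (limma, adjusted p = 0.0380), and it fell in the authors' deposited table (log2 fold change -0.96, adjusted p = 0.00248). It did not pass with edgeR (adjusted p = 0.0878), nor by limma when each library was left out in turn (adjusted p from 0.0504 to 0.186). The log2 difference was -1.29 among libraries 1 to 3 and -0.76 among libraries 4 to 6. Vldlr and Npc2 were the 2 genes of the 32 (6.25%) whose genotypes did not overlap, against 2.52% of all genes tested. On leaving out 1 library there were 2 to 4, the most without Osmr-/- library 2, with Fdps and Sqle. Smaller groups separate more easily in any gene, and the share over all genes in them is not given here.

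Npc1 stood on the other side of 0. It had 495, 511, 414, 481 and 666 normalised counts in Osmr-/- libraries 1, 2, 3, 5 and 6, against 288, 367, 376, 421, 383 and 525 in WT libraries 1 to 6, a log2 difference of 0.39 ± 0.24 (SE; limma, adjusted p = 0.410), and its groups overlapped. Stard4, a cytosolic sterol carrier, had means of 1142 ± 200 in Osmr-/- cells and 1151 ± 267 in WT cells (SD, n = 5 and n = 6). Soat1, which esterifies cholesterol for storage, differed by a log2 value of -0.21 (limma, adjusted p = 0.833). The efflux pumps overlapped too. Abca1 had 193, 254, 165, 824 and 236 normalised counts in Osmr-/- libraries 1, 2, 3, 5 and 6, against 203 to 602 in WT libraries (median 494), a log2 difference of -0.63 (limma, adjusted p = 0.442). Abcg1 had 186 to 587 in Osmr-/- libraries and 284 to 701 in WT libraries, a log2 difference of -0.47 (limma, adjusted p = 0.475).

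The enzymes also varied between mice of the same genotype. Averaged over the 19 enzymes, the log2 deviation from the WT mean was -0.52, -0.19, -1.59, -0.13 and -0.52 in Osmr-/- libraries 1, 2, 3, 5 and 6, against 0.51, 0.55, -0.52, -0.15, -0.04 and -0.34 in WT libraries 1 to 6. WT libraries 1 and 2 stood above all others, Osmr-/- library 3 stood far below, and the other 8 libraries lay between with both genotypes mixed. The same 3 libraries were the extremes on the first principal component of all genes. There Osmr-/- library 3 was at -101, WT library 1 at 138 and WT library 2 at 54.9, so their position was not particular to the enzymes. Of the 32 genes, 13 had their lowest value, ties included, in Osmr-/- library 3, and 6 each had their highest in WT libraries 1 and 2. The same counts over all genes are not given here. WT library 1 was also the deepest, with 22144976 reads.

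**Figure D3:**
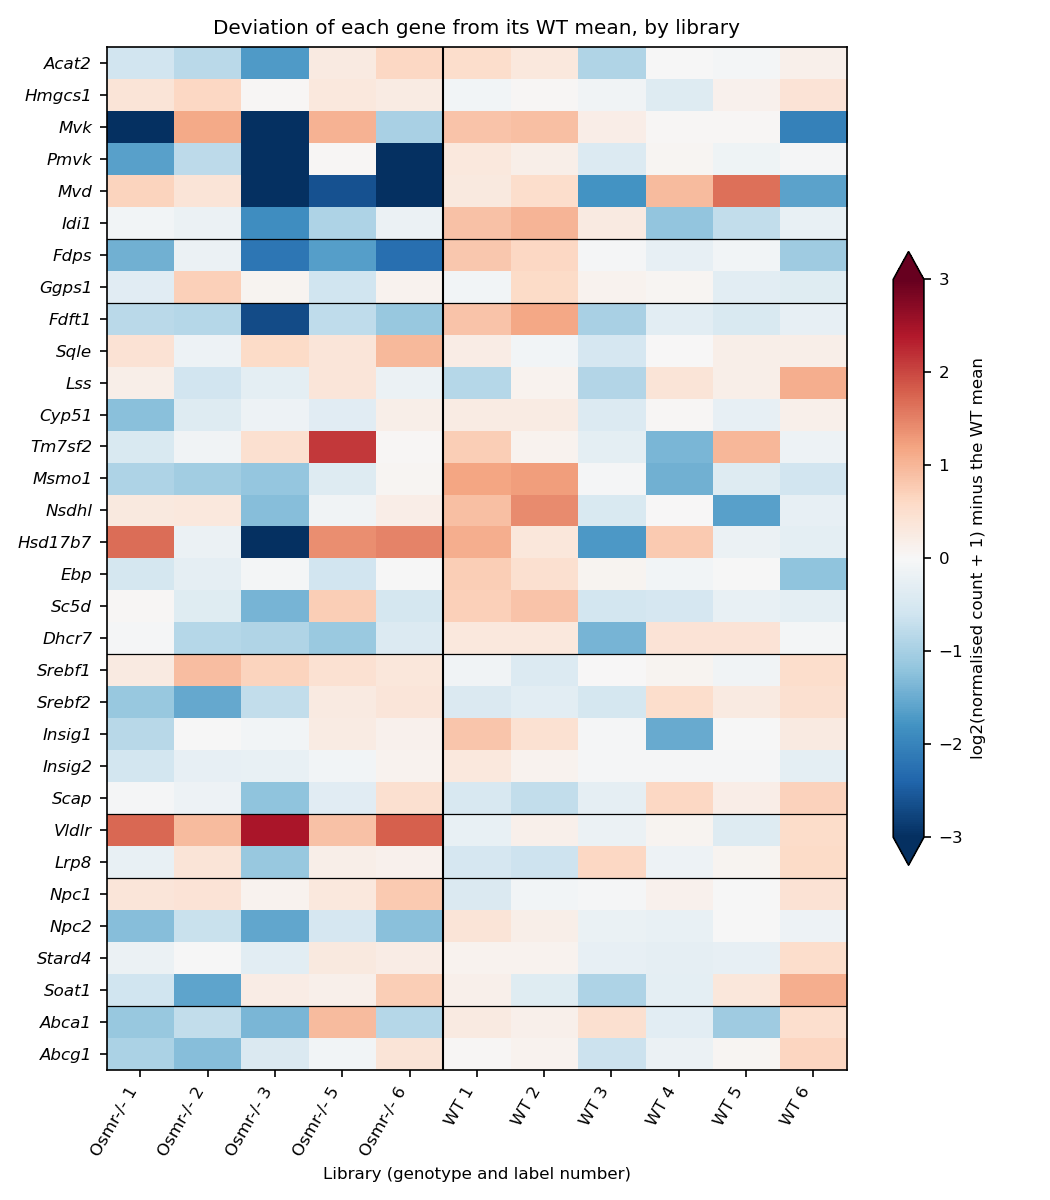
Log2 deviation of each of the 32 genes (rows) from its mean over the WT libraries, in each library (columns, Osmr-/- left of WT). Osmr-/- library 3 is the lowest column for the enzymes (mean -1.59), WT libraries 1 and 2 are the highest (0.51 and 0.55), and the Vldlr row is high in every Osmr-/- library.

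The counts came out differently within the number sets. Among the libraries numbered 1 to 3, 25 of the 32 genes were below 0 (78.1%, against 52.7% of all genes), with a median of -0.66, and 16 of the 19 enzymes were below 0 with a median of -0.84. Among the libraries numbered 4 to 6, 13 of the 32 were below 0 (40.6%, against 50% of all genes), with a median of 0.16, and 8 of the 19 enzymes were below 0 with a median of 0.17. The sign was opposite in the 2 sets for 16 of the 32 genes (50%), against 40.6% of all genes tested, and 14 of those 16 were below 0 in libraries 1 to 3 and above 0 in libraries 4 to 6. Tested as an interaction, the change between sets was called for 0 of 13358 genes by limma, with 1316 (9.85%) at an unadjusted p below 0.05, and for 1 gene without Osmr-/- library 5. Msmo1 had the smallest interaction p of the 32 (log2 values -1.85 in libraries 1 to 3 and 0.63 in libraries 4 to 6; limma, interaction adjusted p = 0.232). Below 0 in both sets were 11 of the 32 genes, namely Fdps, Pmvk, Fdft1, Npc2, Mvd, Ggps1, Cyp51, Dhcr7, Srebf2, Lrp8 and Abcg1. Above 0 in both were 5, namely Vldlr, Srebf1, Npc1, Hmgcs1 and Sqle. Of the 13358 genes tested, 4140 were below 0 and 3790 above 0 in both sets. The genotypes of Vldlr and Npc2 did not overlap, which fixed their signs in both sets in advance.

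**Figure D4:**
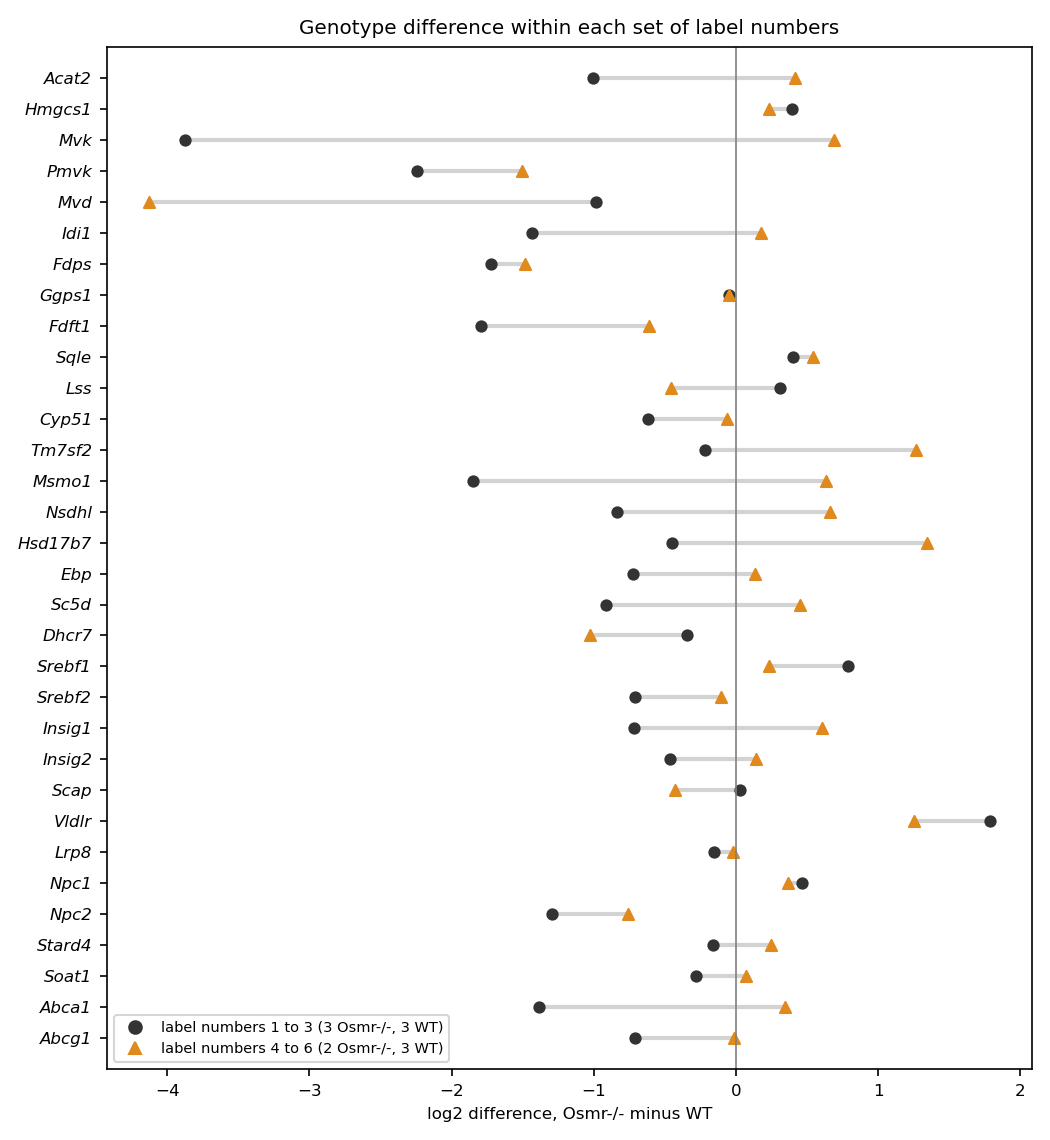
Log2 difference (Osmr-/- minus WT, horizontal axis) of each of the 32 genes (rows) among libraries numbered 1 to 3 (3 Osmr-/- and 3 WT) and among libraries numbered 4 to 6 (2 Osmr-/- and 3 WT). The medians over the 32 genes are -0.66 and 0.16. Vldlr (1.79 and 1.26) and Npc2 (-1.29 and -0.76) keep their side, which was fixed in advance because their genotypes do not overlap.

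Markers of other cells and of the cell cycle moved with genotype in the same libraries, and because each library is a bulk sample, fewer cells of a type and less RNA per cell cannot be told apart. The summed normalised count of 20 erythroid markers, with none at 3 reads or fewer, was 13392 to 19964 in Osmr-/- libraries and 21691 to 64562 in WT libraries (log2 difference -1.29; two-sided exact permutation test, p = 0.0108, adjusted p = 0.0325 over 10 measures). Car2 alone had means of 11416 normalised counts in Osmr-/- cells and 26493 in WT cells, and 16 of the 17 erythroid markers tested singly were below 0. For the sum, WT libraries 1 to 3 held 58492 to 64562 and WT libraries 4 to 6 held 21691 to 24524. In 5 of the 32 genes (15.6%), WT libraries 1 to 3 likewise stood all above WT libraries 4 to 6. This share was close to the 16.1% of all genes tested. The 5 genes were Fdps, Msmo1, Idi1, Ebp and Mvk, which made 26.3% of the 19 enzymes. The 20 G2/M genes summed to 8177 to 16479 in Osmr-/- libraries and 13535 to 19939 in WT libraries (log2 difference -0.76; exact permutation test, adjusted p = 0.0325). The 12 granulocyte markers summed to 5066 to 29727 in Osmr-/- libraries and 3520 to 5788 in WT libraries (log2 difference 0.92; exact permutation test, adjusted p = 0.0325), with Ctsg and Fcnb at 3 reads or fewer and the highest value in Osmr-/- library 3, the lowest library for the enzymes. Without Osmr-/- library 3 the granulocyte log2 difference was 0.44. Prtn3 alone had means of 4831 normalised counts in Osmr-/- cells and 3862 in WT cells (limma, log2 difference 0.34, adjusted p = 0.364). Of the 7 granulocyte markers tested singly, 6 were above 0, and Mpo was below at -1.31. The 6 genes whose products the sort selected against summed to 5518 to 6819 in Osmr-/- libraries and 3152 to 5022 in WT libraries (log2 difference 0.56; exact permutation test, adjusted p = 0.0325), with Ly6g at 3 reads or fewer. Ptprc, which was stained as its B220 form and is expressed by blood cells at large, made up 74.2% to 83% of this sum in Osmr-/- libraries and 64.5% to 78.6% in WT libraries. Its means were 4722 normalised counts in Osmr-/- cells and 2969 in WT cells. Flt3, another gate marker, had a log2 difference of -0.40. With 1 library left out, the adjusted p of these 4 sums lay between 0.0265 and 0.0794, and the call was lost in some of these smaller groups. The part of these markers in the differences of the 32 genes was not tested. The sums of megakaryocyte, macrophage, lymphoid, endothelial and stromal, and stem cell markers had log2 differences of 0.04, -0.21, -0.03, 0.02 and 0.21, with adjusted p from 0.191 to 0.942 (exact permutation tests).

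Outside the 32 genes, 6 further lists of sterol and lipid genes held 94 entries, of which 77 were tested. By limma and edgeR 0 of the 77 were called. DESeq2 called 2 (Sec24a and Lrpap1), against 3.39% of all genes, and the authors' deposited table called 4 of 80 (5%), against 4.46% of all genes. By limma 17 had an unadjusted p below 0.05, against 18% of all genes, and 40 were above and 37 below 0 with a median of 0.04. The genotypes did not overlap in 2 of the 77 (2.6%), Sec24a and Elovl5, a share close to the 2.52% of all genes tested. In the list of SREBP processing and sterol-dependent degradation, 8 of 11 were above 0. Sec24a, a coat protein of the vesicles that carry SCAP and SREBP to the Golgi, had 462 ± 137 normalised counts in Osmr-/- cells and 207 ± 42.1 in WT cells (SD, n = 5 and n = 6; log2 difference 1.13; limma, adjusted p = 0.0967), and its groups did not overlap. Mbtps2, the protease that frees SREBP within the membrane, had 527 ± 85.9 in Osmr-/- cells and 305 ± 83.7 in WT cells (log2 difference 0.81; limma, adjusted p = 0.146). Both rose in the authors' deposited table, with adjusted p of 0.00107 and 0.0289. Of the 16 genes of prenylation, dolichol and ubiquinone synthesis, which draw on the products of Fdps and Ggps1, 11 were above 0. Rce1 and Icmt, which trim and methylate prenylated proteins, differed by log2 values of -1.07 and -1.47 (limma, adjusted p = 0.211 and 0.239).

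Among 10 tested genes of other lipoprotein receptors and their partners, 7 were below 0. Lrpap1, the chaperone that keeps lipoprotein receptors from binding ligand too early, had 180 to 573 normalised counts in Osmr-/- libraries and 357 to 1609 in WT libraries (log2 difference -1.25; limma, adjusted p = 0.143). Sorl1, a sorting receptor that binds lipoproteins, had 131 ± 89.0 in Osmr-/- cells and 44.8 ± 15.9 in WT cells (SD, n = 5 and n = 6; log2 difference 1.32; limma, adjusted p = 0.218). In the authors' deposited table Lrpap1 fell (log2 fold change -1.11, adjusted p = 0.0388) and Sorl1 rose (log2 fold change 1.24, adjusted p = 0.0349). In the list of sterol transfer and lysosomal release, 10 of 18 genes were below 0, with Lamp1, a lysosomal membrane protein, at -0.92 and the sterol carrier Scp2 at -0.66 (limma, adjusted p = 0.129 and 0.196). Of the 13 genes of fatty acid synthesis, 7 were below 0, with the elongases Elovl5 at 0.79 and Elovl1 at -0.82 (limma, adjusted p = 0.143 and 0.209). The 10 genes of the LXR receptors and their targets divided evenly, with Nr1h2, which encodes LXR beta, at -0.96 and its partner Rxrb at 0.81 (limma, adjusted p = 0.195 and 0.347).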

How the data were processed

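RNA from 1000 sorted cells per mouse was amplified before library preparation (SMART-Seq v4, Nextera XT), per the labels' protocols. Trimmomatic 0.36.6, FastQC 0.72, HISAT2 2.1.0, HTSeq 0.9.1 and DESeq2 (Galaxy release 2.11.40.6) with build mm10 are named in the submitters' processing notes; neither the annotation nor the strand setting is stated there. The deposited normalised counts are a signal that the authors made by dividing each library's gene counts by a size factor. The authors also deposited regularised and variance stabilised log2 values, and a DESeq2 result table with log2 fold changes, Wald scores and p-values. Its fold changes run WT over Osmr-/- and are printed with the sign turned. They were smaller than those of DESeq2 on the recovered reads in genes such as Mvd (-0.49 against -1.20) and Pmvk (-0.94 against -1.27). They may have been shrunken, so their sizes are not on the scale of the other fits.

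The 32 genes, the lists and the markers were chosen with earlier results of these data known. The main test was limma 3.58.1 (trend) in R 4.3.3 on log2(normalised count + 1) over genes with at least 10 normalised counts in at least 5 libraries, with Benjamini-Hochberg adjustment over all 13358 genes at a threshold of 0.05. Log2 differences are Osmr-/- minus WT means of these log2 values; for low genes they depend on the added count, understating changes in general and enlarging them where libraries are at 0, and folds are the same differences as ratios of geometric means. All values in the normalised table were whole multiples of 1 step per library (100% within 1e-06 of a whole number), so whole reads were recovered and tested with edgeR 4.0.16 and DESeq2 1.42.0 as alternatives. The single reads stood for 0.520 to 1.29 normalised counts. Marker sums and Osmr were tested by an exact permutation test over libraries, which can give no p below 0.0022. Positions and exon lengths came from GENCODE M21 (all 32 genes matched), promoters from RefSeq. The fits were also run on simulated counts without number sets. This checked only the size of the estimated changes and does not vouch for the calls in these data. Named genes outside the 32 were the 2 of lowest p in each further list.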

Additional observations from a re-analysis of the deposited data

Results flagged for a closer look

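Single libraries stood far from the rest of their genotype in 8 of the 86 gene and marker sums by genotype that were examined, and chance alone gives about 1 in 20. In Osmr-/- cells, library 3 was lowest for Fdft1 at 58.0 normalised counts and for Nsdhl at 131. Library 3 was also highest for the summed granulocyte markers at 29700. Osmr-/- library 5 was highest for Abca1 at 824. In WT cells, library 6 was lowest for Mvk at 9.31, library 3 was lowest for Dhcr7 at 36.3, and library 4 was lowest for Insig1 at 47.3. WT library 6 was highest for the summed stem cell markers at 37200.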

How the results depend on the processing

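The log2 difference of single genes kept its sign and its side of the threshold in 442 of 477 values under 15 alternatives and in 324 of 352 values when 1 library was left out. The count of genes called, 3 with limma, was 55 with an added count of 10, 0 without a filter or with a filter at 50, 56 with quantile scaling, 69 and 66 with the authors' regularised and variance stabilised values, 453 with DESeq2, 337 with the number set as covariate, and 0 within numbers 1 to 3 or 4 to 6. Leaving out a library gave 0 to 122 (122 without WT library 6). Of the 32 genes, 1 was called with an added count of 10 and with either authors' transformation, 2 with quantile scaling, 3 with DESeq2 and with the covariate, and 0 to 2 on leaving out a library (Fdps and Vldlr without WT library 6). With the label number as a replicate block, 0 genes were called and Ggps1 was at 0.0046; label numbers shared no animal in the labels, and the deviations of same-numbered libraries correlated at 0.0203 to 0.0986, so they do not pair the samples. The median of the 32 genes was -0.66 for libraries 1 to 3, and for libraries 4 to 6 it was 0.16, with 19 genes above 0; it was -0.40 to -0.16 on leaving out a library. On leaving out a library, genes of the 32 without overlap numbered 2 to 4 (4 without Osmr-/- library 2, with Fdps and Sqle), and interaction calls over all genes 0 to 1. The share of all genes without overlap in these smaller groups is not given here.

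Signs turned for Ggps1 (0.008 with quantile scaling, 0.018 with edgeR, 0.0295 with DESeq2), Insig1 (0.0076 with quantile scaling) and Stard4 (0.0257 with quantile scaling, 0.0185 with the covariate, 0.0498 with array weights); in numbers 1 to 3 for Lss (0.31), Tm7sf2 (-0.22), Hsd17b7 (-0.45) and Scap (0.0265); and in numbers 4 to 6 for Acat2 (0.41), Mvk (0.69), Idi1 (0.17), Msmo1 (0.63), Nsdhl (0.66), Ebp (0.13), Sc5d (0.45), Insig1 (0.61), Insig2 (0.14), Stard4 (0.25), Soat1 (0.0724) and Abca1 (0.35). On leaving out a library, signs turned within -0.19 to 0.14 for Ggps1, -0.10 to 1.09 for Hsd17b7, -0.41 to 0.0752 for Insig1, -0.0734 to 0.10 for Stard4, -0.28 to 0.11 for Lss, -0.46 to 0.13 for Soat1, -0.44 to 0.18 for Nsdhl, -0.26 to 0.12 for Lrp8 and -0.0138 to 0.63 for Tm7sf2. Osmr ran from -0.33 to 0.28. Marker sums, an alternative added after seeing the data, ran from -1.44 to -1.13 (erythroid), -0.94 to -0.69 (G2/M), 0.44 to 1.08 (granulocyte), 0.49 to 0.62 (genes selected against), 0.14 to 0.28 (stem cell), -0.16 to 0.13 (endothelial and stromal), -0.12 to 0.0636 (lymphoid) and -0.0517 to 0.14 (megakaryocyte), and the first 4 lost their call in some of these. The causes were not tested. A filter at 50 drops Mvk, Mvd and Tm7sf2, the genes that depth limits most.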
